A study of Mus musculus with 10 samples.

Results

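The EGF receptor family and its ligands were followed as 10 genes in RNA-seq of the murine basal cell carcinoma (BCC) line ASZ001. The genes were taken by symbol from both expression tables: the receptors Egfr, Erbb2 and Erbb3, the ligands Epgn, Areg, Ereg, Btc, Tgfa and Hbegf, and the receptor inhibitor Errfi1. All 10 were listed in each table, among 15997 genes that the tables have in common. ASZ001 cells, a Smoothened inhibitor-resistant line, were kept in low serum and low calcium for 24 h in every group, so all values come from 1 cell line. One experiment compared 3 libraries with 10 µM SB431542, an inhibitor of the TGFβ receptor kinase ALK5, against 3 libraries with the vehicle DMSO. The other compared 2 libraries with 20 µM T-5224, an inhibitor of the transcription factor AP-1, against 2 DMSO libraries of its own. The study asked which genes depend on TGFβ signaling and which on AP-1.

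EGF ligands are made as membrane proteins, are cut from the cell surface by metalloproteases and bind the extracellular part of ErbB receptors. Egfr binds all ligands of the group, Erbb2 has no ligand of its own and works as the partner of the other receptors, and Erbb3 binds neuregulins, has a weak kinase of its own and couples its partner receptors to PI3 kinase. In skin, Egfr keeps basal keratinocytes proliferating and holds back their differentiation, and Errfi1, also known as Mig6, binds the activated receptor kinase and ends its signal.

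Levels are given in RPKM, mapped reads scaled by transcript length and by the depth of the library, which may be ordered between genes within an experiment. Depth was 31.9 to 51.3 M reads per library. The tables were normalized separately, so levels of the SB431542 and T-5224 experiments stand side by side below without a test. Basal keratinocyte markers were above 1 RPKM in all libraries, 6 of 6, and their summed level, mostly Krt5 and Krt14, was 9264 to 9447 RPKM in DMSO and 6513 to 6972 RPKM with SB431542. Krt5 and Krt14 were lower with SB431542, whereas Krt15 was at 22.9 to 26.0 RPKM in DMSO and 29.0 to 41.1 RPKM with SB431542, and Trp63, Itga6 and Itgb4 overlapped between the groups. In the T-5224 experiment the 6 markers were all lower with T-5224, and that sum was 11832 to 12497 RPKM in DMSO and 1589 to 1642 RPKM with T-5224. Among markers of other cells, suprabasal, fibroblast and melanocyte lists summed to at most 4.13 RPKM in any library. The immune list rested on Cd68 alone (summed level 16.7 to 18.6 RPKM in DMSO, 32.7 to 33.2 RPKM with T-5224, and 7.10 to 10.5 RPKM in the SB431542 experiment), with Ptprc, Lyz2 and Cd3e at or near 0. The endothelial list rested on Pecam1, and its sum was 5.30 to 6.74 RPKM in DMSO against 2.74 to 2.99 RPKM with SB431542, and 10.9 to 12.0 RPKM in DMSO against 4.13 to 4.67 RPKM with T-5224. The part of these shifts in the results below was not tested. In bulk RNA, fewer cells with a transcript and less transcript per cell cannot be told apart.

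In DMSO, the receptors led the group. In the SB431542 experiment the order of mean levels was Erbb2, Egfr, Erbb3, Epgn, Tgfa, Errfi1, Hbegf, Ereg, Areg and Btc, from 26.5 ± 3.23 RPKM (SD, n = 3) to 0.487 ± 0.0868 RPKM. The ranges of neighbours overlapped for Erbb2 and Egfr, Erbb3 and Epgn, and Ereg and Areg. In DMSO libraries belonging to T-5224 the order was Erbb2, Erbb3, Egfr, Errfi1, Tgfa, Epgn, Hbegf, Btc, Areg and Ereg, from 38.1 ± 0.828 RPKM (n = 2) to 0.101 ± 0.0389 RPKM, and Areg overlapped with both Btc and Ereg. With T-5224 the order turned to Epgn, Egfr, Erbb2, Areg, Erbb3, Tgfa, Errfi1, Hbegf, Ereg and Btc, with overlaps between Areg and Erbb3 and between Erbb3 and Tgfa. A ligand thus stood above every receptor in the T-5224 libraries, and Areg moved from the ninth to the fourth place of the order.

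**Figure D1:**
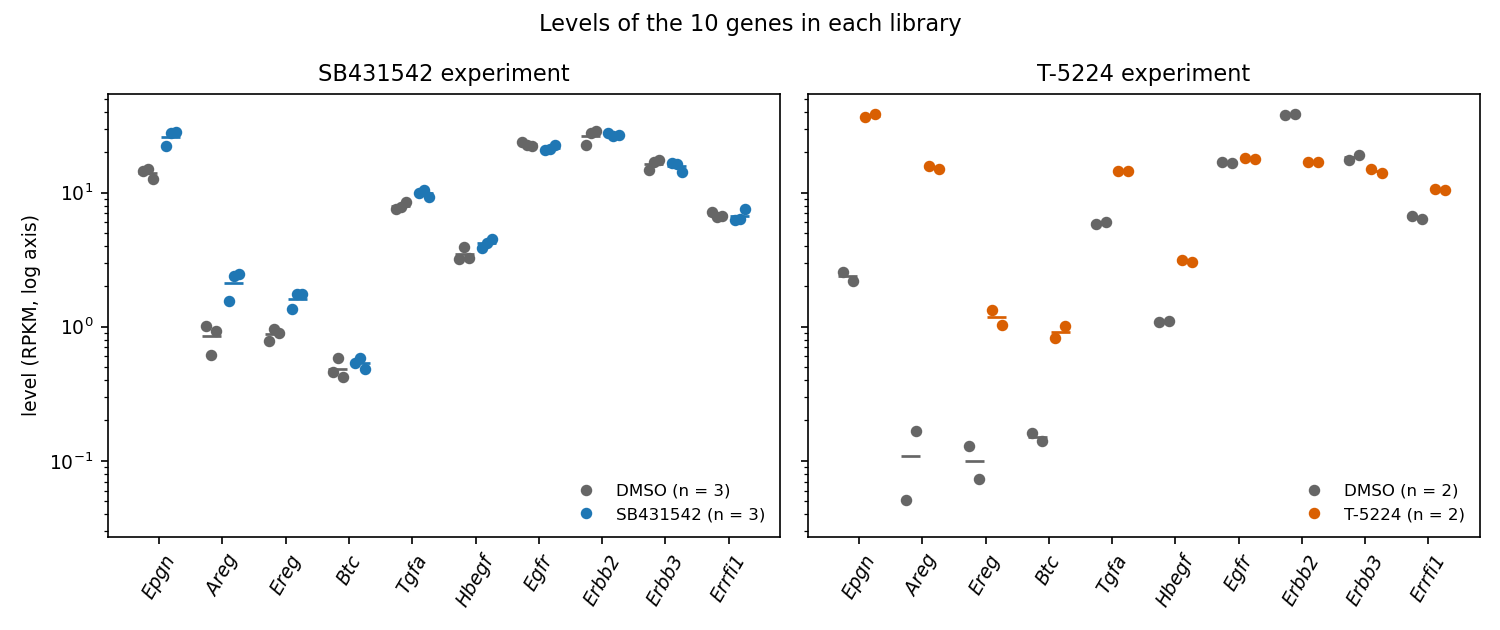
Level of each of the 10 genes in each library, in RPKM on a log axis, with DMSO in grey, SB431542 in blue and T-5224 in orange; points are libraries and horizontal bars are group means. The T-5224 points of Epgn, Areg, Ereg, Btc, Tgfa and Hbegf lie above their DMSO points, and those of Erbb2 lie below.

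Epgn, Areg and Tgfa rose in both experiments, with higher fold changes for T-5224, a difference that was not tested. Genes were tested with limma on log2(RPKM + 0.5) where their mean was at least 1 RPKM, and past the test means an adjusted p under 0.05 (Benjamini-Hochberg over all genes tested). With SB431542, 9 of the 10 members were tested, and Epgn, Areg, Ereg and Tgfa rose, 4 higher and 0 lower, where 10.2% and 10.0% of all 10842 genes tested were past the test in these directions. None of these changes was more than 2-fold on the log2(RPKM + 0.5) scale, a size that 0.231% of the genes reached upward and 0.581% downward. With T-5224, 8 members were tested, and Epgn, Areg, Tgfa, Hbegf and Errfi1 rose while Erbb2 and Erbb3 fell, against a background of 40.3% of 10809 genes higher and 39.4% lower. Of the members tested, 4 (Areg, Epgn, Tgfa and Hbegf) rose and 1 (Erbb2) fell more than 2-fold, where 10.4% and 10.6% of all genes did so. Areg in both experiments, and Ereg in the SB431542 experiment, reached the filter of 1 RPKM only through the treated libraries, so these counts lean upward by construction. Over the 7 members at 1 RPKM or more in both groups, 2 (Epgn and Tgfa) rose and 0 fell with SB431542, with a median log2 fold change of 0.04, beside 0.008 over all genes tested. The same count gives 7 members for T-5224, of which 4 rose (3 of them more than 2-fold) and 2 fell, with a median of 0.65 beside 0.003. The medians and shares over all genes tested include genes at 1 RPKM or more in only 1 group, so these sets were filtered differently. The SB431542 count of 4 was 1 (Epgn) without SB431542 replicate 2 or 3. Without DMSO replicate 1, the library that stood apart most from its group, it was again 4, and Areg alone then rose more than 2-fold (log2 fold change 1.04). Without SB431542 replicate 1 the count was 3, and Areg alone again rose more than 2-fold (log2 fold change 1.11).

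All treated libraries lay above all DMSO libraries for 4 of the 9 members tested with SB431542 and below for 0, where 23.9% and 21.3% of all genes did so. With T-5224 the same held for 6 and 2 of the 8 members tested, where 45.1% and 44.5% of all genes did so, so most genes stood apart from DMSO in that experiment. These counts lean upward as well. Areg and Ereg are among the 4 with SB431542, and Areg is among the 6 with T-5224, through the treated libraries alone. Epgn and Tgfa are the others with SB431542.

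**Figure D2:**
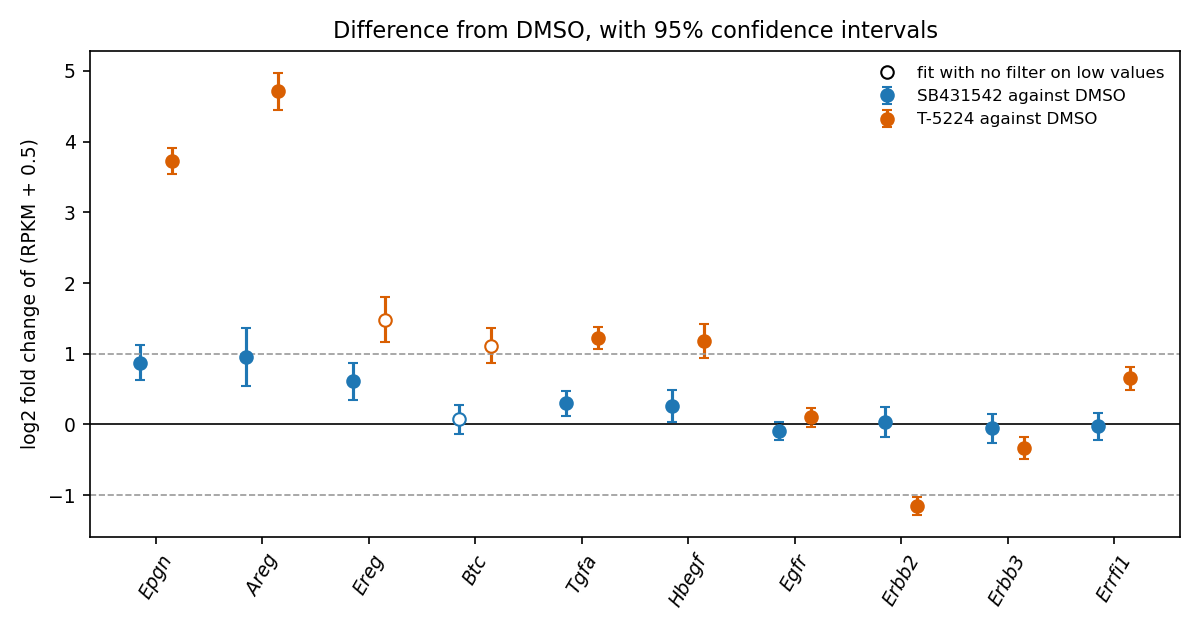
Log2 fold change of each gene against DMSO on the log2(RPKM + 0.5) scale, SB431542 in blue and T-5224 in orange; bars are 95% confidence intervals from limma, dashed lines mark a 2-fold change, and hollow points come from the fit with no filter on low values. Areg at 4.71 and Epgn at 3.72 with T-5224 stand above all other values, and Erbb2 at -1.15 stands lowest.

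Epgn, Ereg, Areg and Btc encode epigen, epiregulin, amphiregulin and betacellulin and lie next to each other within 375 kb of chromosome 5. Epgn (mm9 chromosome 5, 91456490 to 91464241) was at 14.5, 14.9 and 12.6 RPKM in DMSO and at 22.3, 27.7 and 28.3 RPKM with SB431542. All SB431542 libraries were above all DMSO libraries, and the mean rose from 14.0 ± 1.23 to 26.1 ± 3.30 RPKM, 1.87-fold (log2 fold change 0.87, SE 0.11, 95% CI 0.63 to 1.12, limma adjusted p = 0.00230). In the T-5224 experiment Epgn was at 2.57 and 2.19 RPKM in DMSO and at 36.6 and 38.2 RPKM with T-5224, the highest level of any member in the treated libraries. The mean rose 15.7-fold, from 2.38 ± 0.274 to 37.4 ± 1.19 RPKM (log2 fold change 3.72, SE 0.08, 95% CI 3.54 to 3.90, limma adjusted p = 1.21e-11). Epgn remained past the test with each library left out in turn, with log2 fold changes of 0.80 to 0.98 for SB431542 and 3.62 to 3.82 for T-5224.

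Areg (chromosome 5, 91568641 to 91577458) was close to silent in DMSO of the T-5224 experiment, at 0.051 and 0.167 RPKM, which amounts to about 2 and 8 reads. With T-5224 it was at 15.9 and 14.9 RPKM, about 977 and 878 reads. The ratio of the means was 141, and the ratio of summed reads per depth was 130.9 with a 95% counting interval of 71.0 to 273.5 (exact binomial, counting error only). The log2 fold change was 4.71 (SE 0.12, 95% CI 4.45 to 4.97, limma adjusted p = 2.96e-11), and it ran from 3.89 to 6.27 over the alternative settings since it depends on the pseudocount. In the SB431542 experiment Areg was at 1.02, 0.619 and 0.934 RPKM in DMSO and at 1.57, 2.37 and 2.46 RPKM with SB431542, so the groups did not overlap. Its mean rose 2.48-fold, from 0.857 ± 0.211 to 2.13 ± 0.491 RPKM (log2 fold change 0.95, SE 0.18, 95% CI 0.54 to 1.36, limma adjusted p = 0.0114). Leaving out SB431542 replicate 2 or 3 ended this call, with limma adjusted p of 0.0554 and 0.0581.

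Ereg (chromosome 5, 91503643 to 91522675) moved in the same direction at lower levels. It was at 0.788, 0.959 and 0.890 RPKM in DMSO and at 1.35, 1.74 and 1.74 RPKM with SB431542. The groups did not overlap, and the ratio of means was 1.83 (log2 fold change 0.61, SE 0.11, 95% CI 0.35 to 0.87, limma adjusted p = 0.0114), a call lost without SB431542 replicate 2 or 3 (limma adjusted p of 0.0562 and 0.0588). In the T-5224 experiment Ereg was at 0.128 and 0.073 RPKM in DMSO and at 1.33 and 1.03 RPKM with T-5224, below the filter for the test. The T-5224 libraries were 11.8 times higher on average, the read ratio was 12.0 (95% counting interval 8.25 to 18.1), and in the fit with no filter the log2 fold change was 1.48 (SE 0.12, limma adjusted p = 0.000582).

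Btc (chromosome 5, 91786287 to 91831939), the last gene of the row, was below the filter in both experiments. With SB431542 the groups overlapped: DMSO libraries were at 0.458, 0.585 and 0.419 RPKM and SB431542 libraries at 0.536, 0.589 and 0.482 RPKM, and the unfiltered fit gave a log2 fold change of 0.07 (SE 0.08, limma adjusted p = 0.648). With T-5224 it was at 0.817 and 1.01 RPKM, against 0.162 and 0.141 RPKM in DMSO. That is a ratio of 6.02 (95% counting interval of the read ratio 4.12 to 9.11), with a log2 fold change of 1.11 in the unfiltered fit (SE 0.09, limma adjusted p = 0.000676).

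The genes around the ligand row did not all follow it. In a window of 500 kb on each side, chosen after the data were seen, the chemokine gene Cxcl1 lay on the other side of Mthfd2l from Epgn and went from 1.85 ± 0.713 to 27.2 ± 3.84 RPKM with T-5224 (log2 fold change 3.59, limma adjusted p = 3.61e-09). With SB431542 Cxcl1 was at 16.1 ± 5.59 RPKM in DMSO and 29.5 ± 8.11 RPKM in treated libraries, with overlapping groups (limma adjusted p = 0.0592). Mthfd2l itself gave log2 fold changes of 0.17 with SB431542 (limma adjusted p = 0.202) and 0.25 with T-5224 (limma adjusted p = 0.0255). Rassf6 rose with both inhibitors, by log2 fold changes of 0.55 and 1.65 (limma adjusted p = 0.00980 and 8.38e-08). Parm1, beyond Btc, fell with both, by log2 fold changes of -1.54 and -2.35 (limma adjusted p = 0.000945 and 4.97e-10). Cxcl5, farther from Epgn than Cxcl1, overlapped between the groups in both experiments. It was at 2.47 ± 0.637 RPKM in DMSO and 2.51 ± 0.667 RPKM with SB431542 (log2 fold change 0.02, limma adjusted p = 0.960). In the T-5224 experiment it was at 0.168 ± 0.131 RPKM in DMSO and 0.124 ± 0.0382 RPKM with T-5224, below the filter. Cxcl2, between Cxcl1 and Mthfd2l, was below the filter, and all its treated libraries lay above its DMSO libraries in both experiments. It went from 0.0817 to 0.316 RPKM with SB431542 and from 0.0525 to 0.5635 RPKM with T-5224. In the fit with no filter, its log2 fold changes were 0.49 and 0.94 (limma adjusted p = 0.00301 and 0.000407). Ppbp, Cxcl3 and 5830473C10Rik, also below the filter, did not pass in that fit. Among genes on the Epgn side that reached the filter, Rassf6 thus passed the test with both inhibitors, and Cxcl1 and Mthfd2l with T-5224 only.

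**Figure D3:**
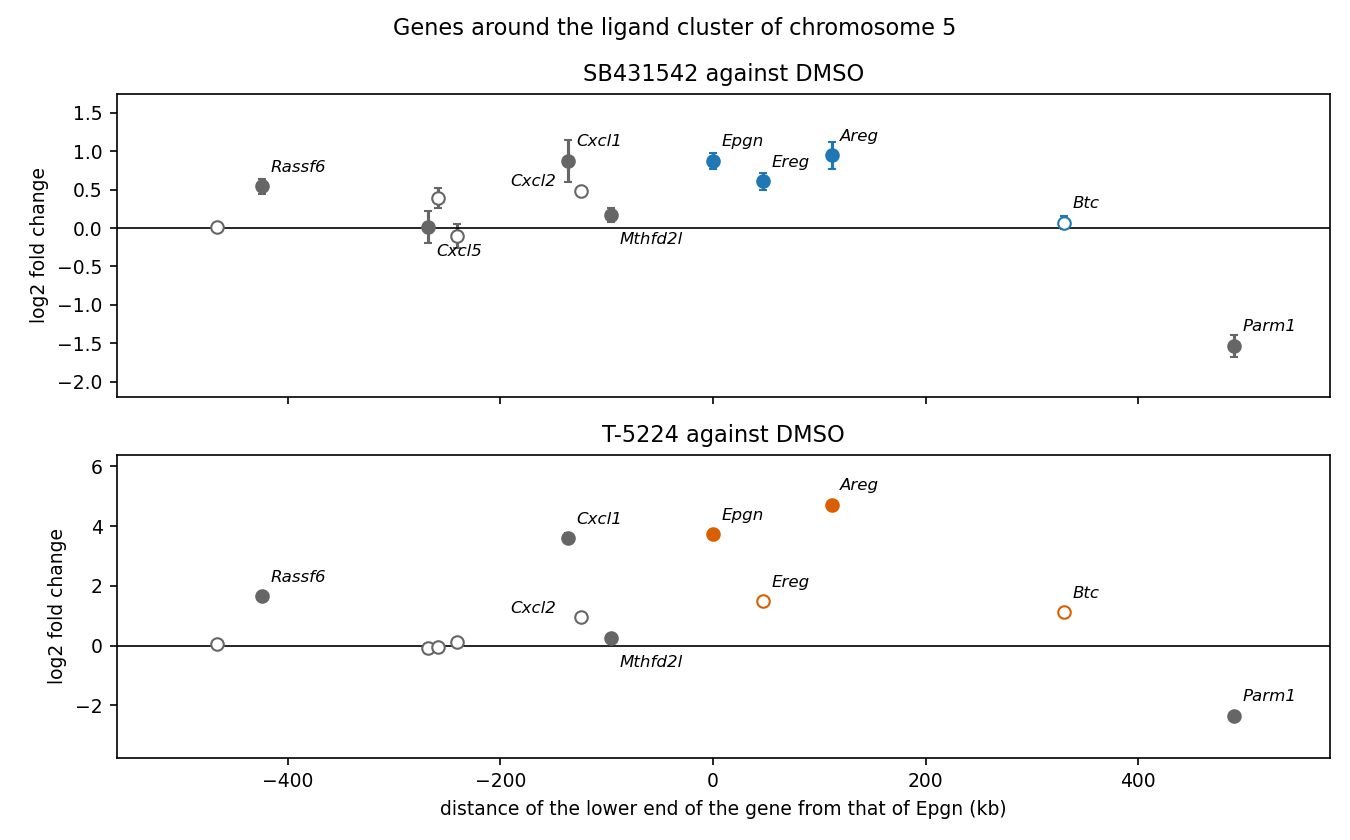
Log2 fold change on the log2(RPKM + 0.5) scale of the genes listed around the ligand row of chromosome 5, against the distance of each gene's lower end from that of Epgn in kb; bars are standard errors, coloured points are ligands, grey points other genes, and hollow points come from the fit with no filter on low values. Epgn, Ereg and Areg lie above 0 in both panels, Btc lies near 0 with SB431542, and Parm1 lies below 0 in both.

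Since Epgn and Areg rose most and Errfi1 is the inhibitor of the same receptor, the bases before their start sites are shown. They are from the promoter windows of RefSeq (GRCm38.p6), which hold 8 windows for 7 of the 10 members (Areg, Epgn, Btc, Tgfa, Egfr, Erbb2 and Errfi1, the last with 2), and each printed stretch was matched without mismatch to mm9. Ereg, Erbb3 and Hbegf had no entry. Capitals mark TGACGTCA, the cyclic AMP response element, and the hexamer TATAAA of core promoters, both of which were chosen after the data were seen. The Epgn stretch stops at the first annotated exon base. The Errfi1 stretch is the second of 2 start sites, lies in the first intron of the annotated transcript that starts upstream, and overlaps the first exon of 1700045H11Rik on the other strand.
Epgn, chr5:91456293-91456489, plus strand: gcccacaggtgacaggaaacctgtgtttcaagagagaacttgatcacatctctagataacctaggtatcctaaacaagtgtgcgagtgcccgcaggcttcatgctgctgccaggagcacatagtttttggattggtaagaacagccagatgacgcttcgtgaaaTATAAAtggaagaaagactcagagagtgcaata
Areg, chr5:91568375-91568624, plus strand: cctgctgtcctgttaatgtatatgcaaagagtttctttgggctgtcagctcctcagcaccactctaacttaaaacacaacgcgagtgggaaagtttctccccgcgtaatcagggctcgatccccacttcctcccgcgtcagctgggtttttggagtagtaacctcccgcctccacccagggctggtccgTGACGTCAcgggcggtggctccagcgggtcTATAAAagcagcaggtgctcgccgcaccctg
Errfi1, chr4:150228929-150229178, plus strand: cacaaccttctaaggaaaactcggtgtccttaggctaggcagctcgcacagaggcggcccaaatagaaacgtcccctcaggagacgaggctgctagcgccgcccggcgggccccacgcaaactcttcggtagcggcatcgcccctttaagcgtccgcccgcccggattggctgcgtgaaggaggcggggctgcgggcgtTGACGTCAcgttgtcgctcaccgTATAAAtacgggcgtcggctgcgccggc

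The response element stood 61 bases before the Areg start and 51 bases before this Errfi1 start, and the hexamer 31 and 28 bases before them. In Epgn the hexamer stood 86 bases before the RefSeq start. That start lies downstream of the first annotated exon base, so the hexamer stood nearer to the annotated start. Over all 32851 promoter windows, searched on both strands, TGACGTCA was in 1.79% and the hexamer (TATAAA or TTTATA) in 13.6%. The AP-1 heptamers TGACTCA and TGAGTCA were in 5.20% of all windows and in 0 of the 8 member windows, and the CArG box was in 1.63% and in 0 of the 8. The heptamers are the consensus that the study gives for AP-1, and binding of AP-1 to other sequences, TGACGTCA included, was not tested. These letters describe the windows only, and sites farther from the start were not searched.

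Tgfa and Hbegf lie on other chromosomes and are the other ligands of the group. Tgfa (chromosome 6, 86145420 to 86225151), which encodes TGFα, an EGF receptor ligand despite its name, was at 5.81 and 6.03 RPKM in DMSO and at 14.6 and 14.4 RPKM with T-5224. It rose 2.45-fold (log2 fold change 1.22, SE 0.07, limma adjusted p = 2.93e-08). In the SB431542 experiment Tgfa was at 7.59, 7.73 and 8.54 RPKM in DMSO and at 9.97, 10.5 and 9.22 RPKM with SB431542, again without overlap, but the rise was 1.24-fold (log2 fold change 0.30, SE 0.07, 95% CI 0.13 to 0.47, limma adjusted p = 0.0293). This call held in 2 of the 6 fits with a library left out (without DMSO replicate 1 or 3), and the highest adjusted p among the other 4, 0.118, came without SB431542 replicate 2.

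Hbegf (chromosome 18, 36664583 to 36675459), the heparin-binding EGF-like growth factor, was at 1.09 and 1.10 RPKM in DMSO and at 3.16 and 3.05 RPKM with T-5224, a rise of 2.84-fold (log2 fold change 1.18, SE 0.11, 95% CI 0.93 to 1.42, limma adjusted p = 1.50e-06). With SB431542 it did not pass the test. DMSO libraries were at 3.20, 3.93 and 3.23 RPKM and SB431542 libraries at 3.87, 4.21 and 4.54 RPKM, so that 1 DMSO library overlapped the treated ones (log2 fold change 0.26, 95% CI 0.03 to 0.48, limma adjusted p = 0.104).

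Summed over the 6 ligands, the level was 9.75 ± 0.0792 RPKM in DMSO and 72.5 ± 0.187 RPKM with T-5224, a ratio of 7.43. Tgfa made up 59.2% and 62.2% of that sum in the DMSO libraries and 20.1% and 19.9% with T-5224. Epgn went from 26.2% and 22.5% to 50.5% and 52.7%, and Areg from 0.5% and 1.7% to 22.0% and 20.5%. The leading ligand transcript in this experiment thus passed from Tgfa to Epgn. In the SB431542 experiment the sum was 27.6 ± 1.04 RPKM in DMSO and 44.5 ± 4.22 RPKM with SB431542, a ratio of 1.61. There Epgn led in every library, with 47.3% to 52.7% of the sum in DMSO and 56.3% to 60.6% with SB431542. DMSO libraries of the 2 experiments differed in this respect, with Epgn at 14.0 and 2.38 RPKM on average, a difference between tables that was not tested.

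**Figure D4:**
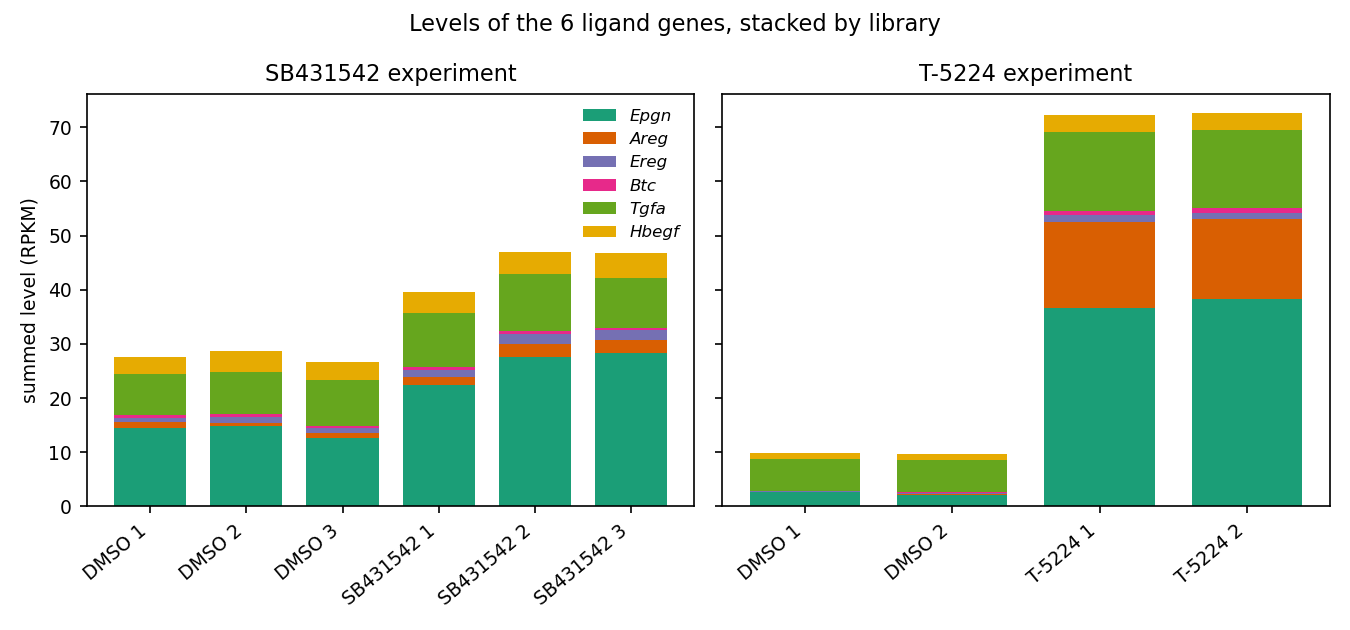
Levels of the 6 ligand genes stacked in each library, in RPKM. The bars reach 26.6 to 28.7 RPKM in DMSO and 39.6 to 47.0 RPKM with SB431542, and 9.69 and 9.81 RPKM in DMSO and 72.3 and 72.6 RPKM with T-5224, where Epgn and Areg fill most of the bar.

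Receptor genes did not pass the test with SB431542, and 2 of the 3 fell with T-5224. Egfr (chromosome 11, 16652206 to 16818161) was at 23.8, 22.8 and 22.4 RPKM in DMSO and at 20.9, 21.0 and 22.6 RPKM with SB431542. The groups overlapped, and the difference did not pass the test (log2 fold change -0.09, SE 0.06, 95% CI -0.23 to 0.04, limma adjusted p = 0.266). With T-5224 it was at 18.1 and 17.9 RPKM, against 16.9 and 16.7 RPKM in DMSO. These libraries did not overlap, but the difference did not pass the test either (log2 fold change 0.10, SE 0.06, 95% CI -0.04 to 0.24, limma adjusted p = 0.156).

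Erbb2 (chromosome 11, 98273784 to 98299030), the co-receptor without a ligand, gave the lowest fold change of the group. It was at 37.5 and 38.7 RPKM in DMSO and at 16.9 and 16.9 RPKM with T-5224, so that the mean fell to 0.443 of its DMSO level (log2 fold change -1.15, SE 0.06, 95% CI -1.28 to -1.02, limma adjusted p = 8.25e-09). With SB431542 the groups overlapped, with 22.8, 27.9 and 28.8 RPKM in DMSO and 27.9, 26.2 and 27.1 RPKM in treated libraries (log2 fold change 0.04, 95% CI -0.17 to 0.25, limma adjusted p = 0.798). DMSO replicate 1 gave the lowest Erbb2 level and is the library that differed most from its group over all genes (SD of log2 differences 0.272, beside 0.161 and 0.190 for the other DMSO libraries), and without it the log2 fold change was -0.07 and again not past the test.

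Erbb3 (chromosome 10, 128004579 to 128026708), the neuregulin receptor, fell with T-5224 from 17.5 and 19.2 RPKM in DMSO to 15.0 and 14.0 RPKM (ratio of means 0.789, log2 fold change -0.33, SE 0.07, 95% CI -0.49 to -0.17, limma adjusted p = 0.00119). With SB431542 it was at 16.7, 16.3 and 14.2 RPKM, within reach of the DMSO libraries at 14.7, 16.9 and 17.4 RPKM (log2 fold change -0.05, 95% CI -0.26 to 0.15, limma adjusted p = 0.696). The summed level of the receptors was 73.3 ± 1.87 RPKM in DMSO and 49.4 ± 0.861 RPKM with T-5224, and Erbb2 went from 52.2% and 51.9% of it to 33.9% and 34.6%, while Egfr went from 23.4% and 22.4% to 36.2% and 36.7%. With SB431542 the sum was 64.3 ± 1.04 RPKM, beside 65.8 ± 3.93 RPKM in DMSO.

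Errfi1 (chromosome 4, 150228028 to 150243001), the feedback inhibitor of the receptor kinase, rose with T-5224. It was at 6.69 and 6.39 RPKM in DMSO and at 10.6 and 10.5 RPKM with T-5224, 1.61-fold higher (log2 fold change 0.65, SE 0.07, 95% CI 0.49 to 0.82, limma adjusted p = 8.32e-06). With SB431542 the groups overlapped at 7.10, 6.60 and 6.69 RPKM in DMSO and 6.22, 6.34 and 7.47 RPKM in treated libraries, and the log2 fold change was -0.03 (95% CI -0.22 to 0.16, limma adjusted p = 0.837). Whether a member's response differed between the inhibitors was not tested, as the experiments differ in dose and number of libraries and in their DMSO libraries.

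Errfi1 overlaps 1700045H11Rik on the other strand, and the annotated exons of these genes share 0 bases.

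Over the 10462 genes tested in both tables, likeness to a member was measured as the Euclidean distance over the 10 libraries of log2(RPKM + 0.5) less the DMSO mean of the same table. Nearest to Egfr were Smap1 (0.0995), Rasa3 (0.119), Spg20 (0.124), Vps4a (0.124) and Cdk2ap1 (0.130), where the median gene was 0.890 away. Like Egfr, these 5 stayed near their DMSO level, with log2 fold changes of -0.11 to -0.07 with SB431542 and 0.07 to 0.13 with T-5224. The genes nearest to Errfi1 were Crcp (0.137), Prmt5 (0.169), Zfp142 (0.178) and Morf4l2 (0.183), with a median gene at 1.17. They had log2 fold changes of 0.61 to 0.66 with T-5224, close to the 0.65 of Errfi1. For Egfr and Errfi1 alike, such closeness follows from picking the genes by this distance.

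The rest of the pathway was read from 5 lists with 64 genes. With SB431542, 56 were tested, of which 4 rose, 7 fell and 45 did not pass the test, with a median log2 fold change of 0.00, and 1 rose and 0 fell more than 2-fold, where 0.231% and 0.581% of all genes did so. With T-5224, 55 were tested, of which 20 rose, 20 fell and 15 did not pass, with a median of -0.06, and 3 rose and 1 fell more than 2-fold, where 10.4% and 10.6% of all genes did so. The shares past the test over all genes were 10.2% higher and 10.0% lower with SB431542, and 40.3% and 39.4% with T-5224. Nrg2 with SB431542 and Gab2 with T-5224 reached the filter only through the treated libraries, and Gab2 with SB431542 only through DMSO. Over the 54 genes at 1 RPKM or more in both groups, 3 rose and 7 fell with SB431542, 0 of them more than 2-fold. The same count gives 54 genes for T-5224, of which 19 rose (2 of them more than 2-fold) and 20 fell (1 of them more than 2-fold). The SB431542 counts leaned on single libraries, with 7 higher and 12 lower without DMSO replicate 1, 2 and 5 without DMSO replicate 2, 2 and 3 without SB431542 replicate 1, 1 and 2 without SB431542 replicate 2 and 1 and 1 without SB431542 replicate 3.

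Among the other ErbB receptors and ligands, 2 genes were tested with SB431542 (Nrg1 and Nrg2) and 1 with T-5224 (Nrg1), and each rose. Nrg2 reached the filter only through the SB431542 libraries, so its rise was favoured by the filter. Nrg1, a ligand of Erbb3, was at 8.19, 5.80 and 5.30 RPKM in DMSO and at 10.3, 11.9 and 13.5 RPKM with SB431542 (log2 fold change 0.85, limma adjusted p = 0.0122), and at 1.55 and 1.23 RPKM in DMSO and 4.70 and 4.17 RPKM with T-5224 (log2 fold change 1.39, limma adjusted p = 7.09e-07). Nrg2 rose with SB431542 from 0.691 ± 0.0353 to 1.93 ± 0.143 RPKM (log2 fold change 1.03, limma adjusted p = 0.000679), the only gene of the 5 lists past 2-fold there, and was at most 0.245 RPKM in the T-5224 experiment. Egf itself was below 1 RPKM in all libraries, at 0.039 and 0 RPKM in DMSO and 0.695 and 0.682 RPKM with T-5224. Erbb4, the remaining receptor of the family, was at most 0.015 RPKM in any library, and Nrg4 was at most 0.057 RPKM.

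In ligand release and trafficking, Rhbdf2, which encodes the inactive rhomboid iRhom2 that carries the sheddase ADAM17 to the surface, rose with T-5224 from 9.49 ± 0.740 to 34.5 ± 1.26 RPKM (log2 fold change 1.81, limma adjusted p = 9.61e-10). Of the 9 genes tested there, 4 rose and 4 fell. With SB431542, 1 rose and 2 fell, and the largest change was that of Timp3, an inhibitor of metalloproteases, from 274.5 ± 27.6 to 152.3 ± 9.58 RPKM (log2 fold change -0.84, limma adjusted p = 0.00116).

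Of the 17 adaptors and direct effectors, 1 rose and 2 fell with SB431542, where the largest change, that of Gab2, did not pass the test (log2 fold change -0.33, limma adjusted p = 0.0507). With T-5224, 6 rose and 5 fell. The docking protein gene Gab2 went from 0.818 ± 0.265 to 2.52 ± 0.165 RPKM (log2 fold change 1.21, limma adjusted p = 1.51e-05), and Plcg1, phospholipase C γ1, fell from 34.3 ± 2.13 to 15.6 ± 0.275 RPKM (log2 fold change -1.11, limma adjusted p = 2.58e-08).

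Of the 17 genes of receptor degradation and inhibition that were tested, 0 rose and 3 fell with SB431542, led by Sh3kbp1, an adaptor of the ubiquitin ligase Cbl (log2 fold change -0.49, limma adjusted p = 0.0246). With T-5224, 5 rose and 7 fell, led by the ubiquitin ligase gene Cblb, which fell from 14.6 ± 0.192 to 7.07 ± 0.0919 RPKM (log2 fold change -0.997, limma adjusted p = 1.29e-07). In the RAS, RAF, MEK and ERK core, 0 of 11 genes passed the test with SB431542, where Map2k2 had the largest log2 fold change, 0.26 (limma adjusted p = 0.239). With T-5224, 4 rose and 4 fell, and Map2k1, which encodes MEK1, fell from 37.5 ± 0.474 to 21.2 ± 0.719 RPKM (log2 fold change -0.81, limma adjusted p = 1.63e-07).

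**Figure D5:**
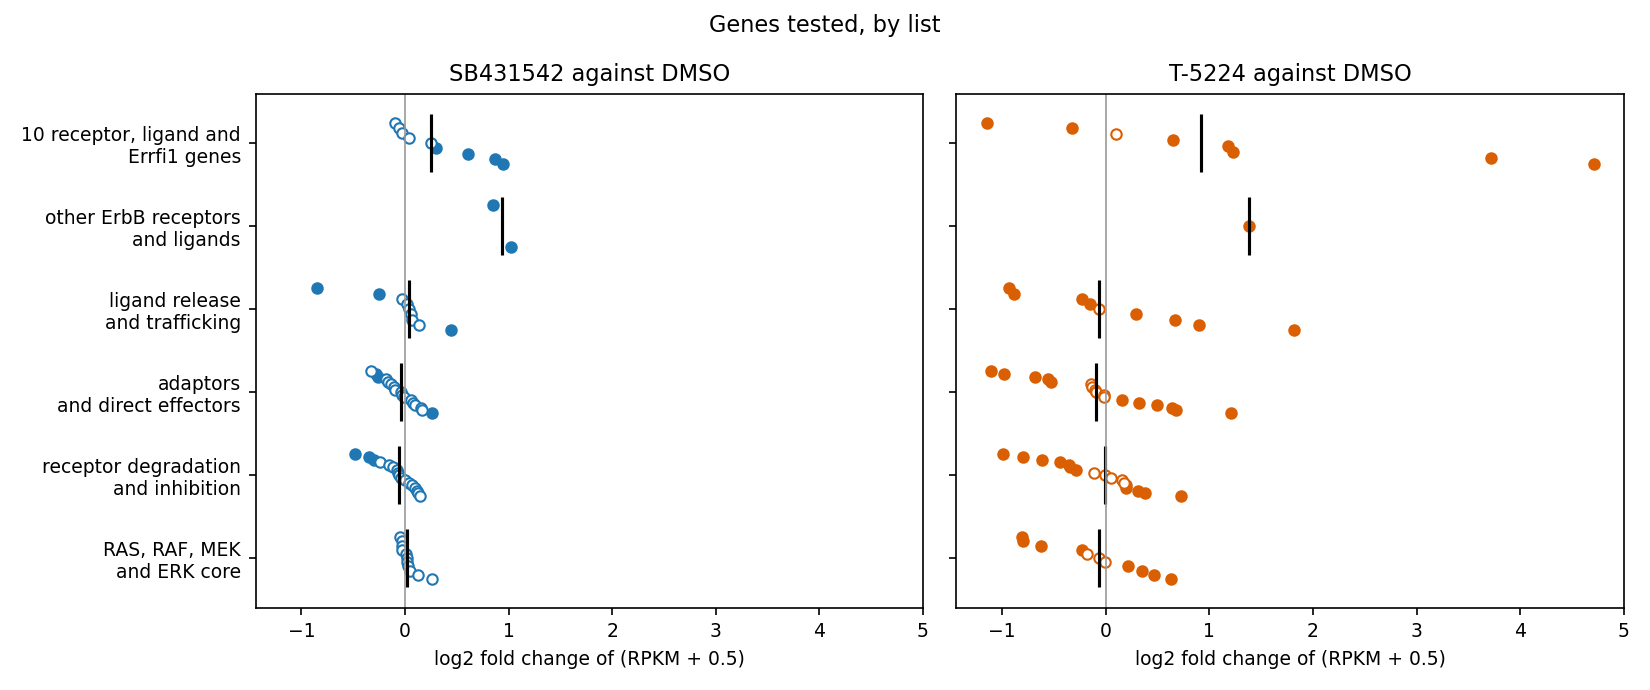
Log2 fold changes of the members tested and of the genes tested in the 5 pathway lists, SB431542 on the left and T-5224 on the right; each point is a gene, filled where its limma adjusted p is under 0.05, and black bars are medians. The medians of the 4 longer lists lie between -0.09 and 0.04 in both panels, and those of the members tested, which include Areg and Ereg where they reached the filter only through treated libraries, are 0.26 and 0.92 (0.04 and 0.65 without them).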

How the data were processed

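The RNA-seq data are 2 tables of RPKM per gene and library, deposited by the authors: 6 libraries for SB431542 and 4 for T-5224. Per the labels, libraries were made with a stranded mRNA kit, and the authors mapped reads to mm9 with TopHat and made RPKM with HOMER; the strand setting of the counting is not given in the sources used here. The authors' own test was DESeq2 on counts, which were not analysed here. No column of values was set aside (0 unused). The DMSO columns of the T-5224 table are numbered 1 and 2 and the labels number its DMSO libraries 4 and 5, so these columns were matched to their group and not to single libraries. The study calls the libraries biological replicates; their cultures are not described further.

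In the tables, 22 and 23 rows carried a date in place of a symbol and were dropped. Genes with a mean of at least 1 RPKM over a table entered limma 3.58.1 (R 4.3.3) as log2(RPKM + 0.5). The moderated test allowed for a mean-variance trend, and p-values were adjusted by Benjamini-Hochberg over 10842 and 10809 genes. Fold changes on this scale understate changes of low genes. The script was tested on simulated data. Members below the filter have values from a fit with no filter. The genes named are all members, in each pathway list the tested gene with the largest change and those past 2-fold, the 5 genes most like Egfr and Errfi1 (1 of them is not reported here), marker genes and, chosen after their values were seen, neighbours of the ligand row. The members and lists were chosen with earlier results of these data known.

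Depth was worked out from RPKM of genes under 250 bases with fewer than 6 reads, whose values are whole multiples of 1 read; 99.1 to 100.0% of them lay within 0.05 of a whole read. Reads per member are estimates from RPKM, depth and the longest annotated transcript. Gene positions were read from GENCODE vM1, built on the same assembly as mm9. Alternatives were pseudocounts of 0.1 and 1, no filter or a mean of at least 5 RPKM, median centring, quantile normalization, no trend, an unadjusted p, the replicate number as a block, and each library left out.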

Additional observations from a re-analysis of the deposited data

How the results depend on the processing

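With T-5224, members kept their direction and their side of the test under every alternative that tested them and with each library left out, and with a pseudocount of 1 the rise of Hbegf was under 2-fold (log2 fold change 0.97). With SB431542, the count of members higher was 2 at a mean of at least 5 RPKM, where Areg and Ereg are no longer tested, and 1 to 4 with a library left out (1 without SB431542 replicate 2 or 3, where Epgn remained past the test). Members higher by more than 2-fold numbered 1 (Areg) with a pseudocount of 0.1 or quantile normalization, and 0 to 1 with a library left out. Tgfa was no longer past the test with no filter (limma adjusted p = 0.0533) or with a replicate block (0.0811), and Hbegf passed at an unadjusted p of 0.0322. Log2 fold changes that turned with a library left out were those of Erbb2 (-0.066 to 0.0999), Erbb3 (-0.125 to 0.015) and Errfi1 (-0.106 to 0.018) in the SB431542 experiment.

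Deviations of same-numbered DMSO and SB431542 libraries correlated at -0.148, 0.151 and -0.095 for replicates 1, 2 and 3. Of the DMSO libraries, only replicate 2 correlated best with its own number. DMSO replicate 1 correlated best with SB431542 replicate 3 (0.167), and DMSO replicate 3 with SB431542 replicate 1 (0.196). With 3 libraries per group, these values cannot show whether same-numbered libraries were handled together. The main fit did not pair them. With the replicate block, 3 pathway genes were lower with SB431542 in place of 7. By an unadjusted p there were 11, and with a library left out 1 to 12 lower and 1 to 7 higher. Over all genes, more than 2-fold higher with SB431542 were 38 with a pseudocount of 0.1, 12 with a pseudocount of 1 and 10 at a mean of at least 5 RPKM, and 41 were lower at that mean, where T-5224 gave 742 lower in place of 1144. No paired analysis was made for T-5224. Its groups share no replicate numbers in the labels, although the columns of both groups carry the same numbers. Leaving out a library there leaves 1 in its group, assumed to vary like the others.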
